A study of Mus musculus with 32 samples.

Results

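The osteogenic genes described here are 8 genes of bone formation, taken by symbol: the transcription factor genes Runx2 and Sp7, the phosphatase gene Alpl, the matrix protein genes Bglap, Bglap2, Spp1 and Ibsp, and the decoy receptor gene Tnfrsf11b. All 8 were among the 21829 mouse genes of the table, and 2 of them, Runx2 and Spp1, passed the filter on low counts that left 9344 genes. The cells were EL08-1D2, a mouse mesenchymal stromal line, so each group holds cells of 1 line and no second line was measured. They were grown with azacitidine (16 libraries) or without it (16 libraries), and values for a group rest on n = 16 unless they are given by run. Azacitidine, a drug built like cytidine, enters DNA, binds DNA methyltransferases there and so lowers methylation. Dose and time are not given in the labels used here, nor whether each library had a culture of its own. The p-values therefore speak of the spread among the libraries, part of which may be technical.

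Mesenchymal stromal cells can turn into bone-forming osteoblasts. RUNX2 starts that programme, SP7 (osterix) acts after it, alkaline phosphatase frees phosphate for mineral, and osteocalcin, osteopontin and bone sialoprotein are laid down in the matrix. The decoy receptor osteoprotegerin holds back the osteoclasts that take bone away by binding the ligand RANKL.

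Values are counts of molecular barcodes (UMIs, so that copies of 1 cDNA molecule are not counted again), given raw or as CPM, the counts scaled to a common library size. Libraries held between 1226861 and 5039721 UMIs with azacitidine and between 818619 and 3210801 without it. Libraries with numbers in the same run of 4 (1 to 4, 5 to 8, 9 to 12, 13 to 16) are given together below. The labels do not say what the numbers stand for. The 5 libraries 1, 2 and 4 with and 1 and 2 without azacitidine are called those that stood apart below. Their median correlation with their own group lay between 0.938 and 0.965, against 0.960 to 0.976 in the other 27. These ranges overlap. Untreated library 2, among the 5, had 0.965, and untreated libraries 4 and 9, not among them, had 0.960 and 0.964. So this correlation alone does not set the 5 apart, and the rule that chose them is not given here. In bulk RNA, fewer cells that express a gene and less RNA per cell cannot be told apart. Of 11 mesenchymal stromal markers 10 were tested, and Vim, Pdgfra and Prrx1 stood at 2008, 61.5 and 86.5 CPM with and 1985, 62.4 and 86.7 CPM without azacitidine. Of these markers 0 rose and 3 fell, the collagen genes Col1a1, Col1a2 and Col3a1, with log2 fold changes of -0.37, -0.39 and -0.65 (edgeR, adjusted p = 0.0014, 0.0010 and 6.2e-09). Over all genes tested edgeR called 3.65% as higher and 2.00% as lower, and after scaling by spike-in RNA it called 1 gene as lower. The summed level of the 11 markers ranged from 6318 to 10631 CPM with and from 9177 to 12309 CPM without the drug. Thy1, below the filter, had 26 UMIs with and 0 UMIs without it. Against a floor of 3 counts over the untreated group this was 6.18-fold higher, the counting error of the treated group left out.

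Across all genes edgeR's quasi-likelihood test called 528 of 9344, or 5.65%, at a Benjamini-Hochberg adjusted p under 0.05, and 3.65% were called as higher with azacitidine (341 higher and 187 lower). Scaled by spike-in RNA, which moved the median of all genes tested to 0.31 on the log2 scale, 354 were higher and 1 lower. The directions above and below are therefore relative to the genes' common level unless spike-in scaling is named. Neither Runx2 nor Spp1 was among them, nor had either an unadjusted p under 0.05, and DESeq2 and limma-voom called 0 of both. The other 6 members lay below the filter and were read from the same test on all 21822 genes with a UMI, where 3.94% were called, 3.29% as higher and 0.651% as lower. There 3 members rose with azacitidine, namely Bglap, Bglap2 and Tnfrsf11b, 0 fell, and Sp7, Alpl and Ibsp had 5 UMIs or fewer in either group. Among genes with 51 to 300 UMIs in all, the range that holds these 3, 5.95% rose. Libraries of a run resembled each other, and when each run and group was summed to 1 value, 4 sums against 4, edgeR without the filter called 0 of the 8 members. With a run term added to the sums the same 3 members were called (edgeR, adjusted p = 0.00022 for Bglap, 0.0025 for Bglap2 and 0.0061 for Tnfrsf11b). With the filter on low counts, edgeR on sums called 108 of 12281 genes, and 400 with the run term. The shares of all genes called on sums without the filter are not given here.

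Runx2, the gene of the transcription factor that commits cells to the osteoblast lineage (ENSMUSG00000039153, mm10 chromosome 17, 44495987 to 44814797), did not pass the test. It ranged from 6.44 over a median of 13.2 to 20.0 CPM with azacitidine and from 8.20 over 16.3 to 22.1 CPM without it. The groups overlapped, and no library with the drug exceeded the highest without it. Means were 13.5 ± 3.0 and 15.4 ± 4.5 CPM (SD) with and without azacitidine, a log2 fold change of -0.22 (SE 0.13, 95% interval -0.49 to 0.04; edgeR, adjusted p = 0.41). The sign was not stable: the value was 0.08 both with spike-in scaling and after every library was thinned to 818619 UMIs. In the 4 runs the log2 difference was -0.29, -0.35, 0.07 and -0.27, each with an SE of 0.23 or more, and the difference between runs did not pass the test (edgeR, interaction, adjusted p = 0.85). Runx2 overlaps the opposite-strand genes Supt3 and Runx2os1 to Runx2os3, and without stated strand use their reads cannot be told apart.

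Sp7, the gene of osterix (ENSMUSG00000060284, chromosome 15, 102356606 to 102367182), was near the limit of detection. It had 5 UMIs in 3 libraries with azacitidine and 1 UMI in 1 library without it. The rate ratio was 3.56 with a 95% counting interval of 0.399 to 169, so a difference was not detectable at this depth (edgeR without the filter, adjusted p = 0.58). Alpl, the tissue-nonspecific alkaline phosphatase gene (ENSMUSG00000028766, chromosome 4, 137741733 to 137796384), had 2 UMIs with and 2 without azacitidine, each from a different library. Its ratio was 0.713 with an interval of 0.0517 to 9.84. Intervals of this kind cover counting error only.

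Osteocalcin, a small vitamin K-dependent protein that binds calcium and is made by mature osteoblasts, is encoded in the mouse by neighbouring genes on chromosome 3 (mm10, minus strand): Bglap (ENSMUSG00000074483) at 88383501 to 88384464 and Bglap2 (ENSMUSG00000074486) at 88377736 to 88378699. The related Bglap3 (ENSMUSG00000074489), which is no member of the list, lies beside them at 88368616 to 88372743. The transcripts are alike, so reads could be split among the rows. Of the 50-base stretches of the Bglap transcript 74.7% occurred in Bglap2 and 20.5% in Bglap3 (GENCODE M21), and 24.0% of those of Bglap3 occurred in Bglap2. RefSeq promoter windows (GRCm38.p6) were held for 5 of the 8 members, Runx2, Alpl, Bglap, Spp1 and Ibsp. The 250 bases before the start are shown for Bglap and Bglap3, which rose, and for Spp1 and Runx2, which did not pass the test. Capitals mark the RUNX core ACCACA, searched on both strands (TGTGGT on the other), and the windows are chr3:88384467-88384716 (minus strand), chr3:88372742-88372991 (minus strand), chr5:104434861-104435110 (plus strand) and chr17:44814628-44814877 (minus strand).
Bglap: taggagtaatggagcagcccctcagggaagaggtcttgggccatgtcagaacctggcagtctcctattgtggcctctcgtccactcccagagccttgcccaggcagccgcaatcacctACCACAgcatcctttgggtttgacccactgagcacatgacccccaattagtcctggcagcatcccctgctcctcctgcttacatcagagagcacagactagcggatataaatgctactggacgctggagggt
Bglap3: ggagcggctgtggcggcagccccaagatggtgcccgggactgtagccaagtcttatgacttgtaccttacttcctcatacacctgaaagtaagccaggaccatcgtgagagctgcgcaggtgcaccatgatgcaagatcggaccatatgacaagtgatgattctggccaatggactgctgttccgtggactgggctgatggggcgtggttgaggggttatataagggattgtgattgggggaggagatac
Spp1: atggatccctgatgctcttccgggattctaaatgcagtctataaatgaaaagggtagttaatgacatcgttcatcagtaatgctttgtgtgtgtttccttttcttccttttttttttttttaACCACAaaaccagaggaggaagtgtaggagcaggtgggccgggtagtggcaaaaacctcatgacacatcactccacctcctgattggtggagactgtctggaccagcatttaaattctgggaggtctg
Runx2: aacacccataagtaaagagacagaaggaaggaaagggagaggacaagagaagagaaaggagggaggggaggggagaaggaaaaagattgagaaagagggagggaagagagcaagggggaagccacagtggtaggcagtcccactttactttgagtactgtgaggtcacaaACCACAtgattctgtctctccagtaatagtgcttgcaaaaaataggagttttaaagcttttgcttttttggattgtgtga
The core begins 132 bases before the start in Bglap, 128 in the first Spp1 window and 80 in Runx2. These letters are not in the second Spp1 window (chr5:104435942-104436191), nor in any window of Bglap3, Alpl and Ibsp. Of all 32851 windows of this length 14.0% hold it. The windows shown have 4 CpG dinucleotides in Bglap, 8 in Bglap3, 3 in Spp1 and 0 in Runx2, against a median of 6 and quartiles of 2 and 16 over all windows. Alpl has 20 in the window of its outer start and Ibsp 2. Methylation was not measured, and a match is a description of the letters alone.

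Bglap rose with azacitidine. It had 152 UMIs with azacitidine, in 16 of 16 libraries, and 42 UMIs without it, in 14 of 16. The libraries ranged from 0.894 over a median of 3.05 to 10.4 CPM with the drug and from 0 over 1.28 to 4.37 CPM without it. The groups overlapped: 15 of 16 treated libraries lay above the untreated median and 5 above the highest untreated library. The means of 3.87 ± 2.73 and 1.52 ± 1.17 CPM (SD) with and without the drug gave a log2 fold change of 1.32 (SE 0.33; edgeR without the filter, adjusted p = 0.0089). The increase was uneven over the runs. The summed counts were 48 UMIs with and 12 without azacitidine in numbers 1 to 4, 75 and 8 in numbers 5 to 8, 18 and 18 in numbers 9 to 12, and 11 and 4 in numbers 13 to 16. Relative to all UMIs of a run and group, the ratios were 2.08, 5.71, 1.15 and 2.54. Only in numbers 5 to 8 did the groups not overlap, and only there did Bglap pass the test (log2 difference 2.52, SE 0.47; edgeR without the filter, adjusted p = 1.7e-05). In the 4 runs edgeR without the filter called 4.15%, 1.78%, 0.724% and 1.21% of genes as higher. The share of all genes whose groups do not overlap, in a run or over all libraries, was not counted here or below. The difference between runs had an unadjusted p = 0.014 and an adjusted p = 0.23 (edgeR without the filter, interaction), in a test that called 3.15% of genes.

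Bglap2 also rose with azacitidine. It had 217 UMIs with and 82 UMIs without azacitidine, in all 32 libraries. The range was 1.46 to 12.9 CPM with a median of 4.93 in treated libraries, and 0.550 to 7.07 CPM with a median of 2.96 in untreated ones. Of 16 treated libraries 14 exceeded the untreated median and 4 the highest untreated library. The log2 fold change was 0.89 (SE 0.24; edgeR without the filter, adjusted p = 0.018). The call did not hold without library 5 or without library 7 of the treated group (edgeR, adjusted p = 0.051 and 0.061), nor with limma-voom (adjusted p = 0.060). By run the counts were 63 with and 18 without azacitidine, then 95 and 25, 27 and 27, and 32 and 12. The ratios of these shares of all UMIs were 1.82, 2.32, 1.15 and 2.46, and the groups did not overlap in numbers 5 to 8, the run in which Bglap2 passed the test (log2 difference 1.24; edgeR without the filter, adjusted p = 0.015). Numbers 9 to 12 were again the run with the smallest difference for Bglap2, as for Bglap, and the reads of both rows could be shared. When every library was thinned to 818619 UMIs neither gene was called (edgeR without the filter, adjusted p = 0.081 for Bglap and 0.10 for Bglap2).

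Bglap3 had the clearest separation of the osteocalcin rows. It had 139 UMIs with azacitidine, in 16 of 16 libraries, and 14 UMIs without it, in 8 of 16. Treated libraries ranged from 1.33 to 6.26 CPM and untreated ones from 0 to 1.92 CPM, and 13 treated libraries lay above all untreated ones. The log2 fold change was 2.69 (SE 0.34; edgeR without the filter, adjusted p = 3.1e-08). The ratio was 6.44, 5.49, 6.49 and 10.1 in the 4 runs, and in numbers 9 to 12 the gene was not called (edgeR without the filter, adjusted p = 0.095). Since reads could move between the rows, they were also summed. The sum of the 3 rows was 508 UMIs with and 138 UMIs without azacitidine. It averaged 13.1 ± 4.8 and 5.14 ± 2.50 CPM (SD) with and without the drug. It passed the default filter and rose by 1.36 on the log2 scale (SE 0.20, edgeR, adjusted p = 9.2e-06). Treated libraries held 6.84 CPM or more and the untreated median was 4.56 CPM, so passing the filter is no added evidence of a rise. The sum was formed after the values were seen. The ratio of the sum was 2.57, 3.34, 1.48 and 3.69 in the 4 runs, and the counting interval of numbers 9 to 12 reached 0.999.

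**Figure D1:**
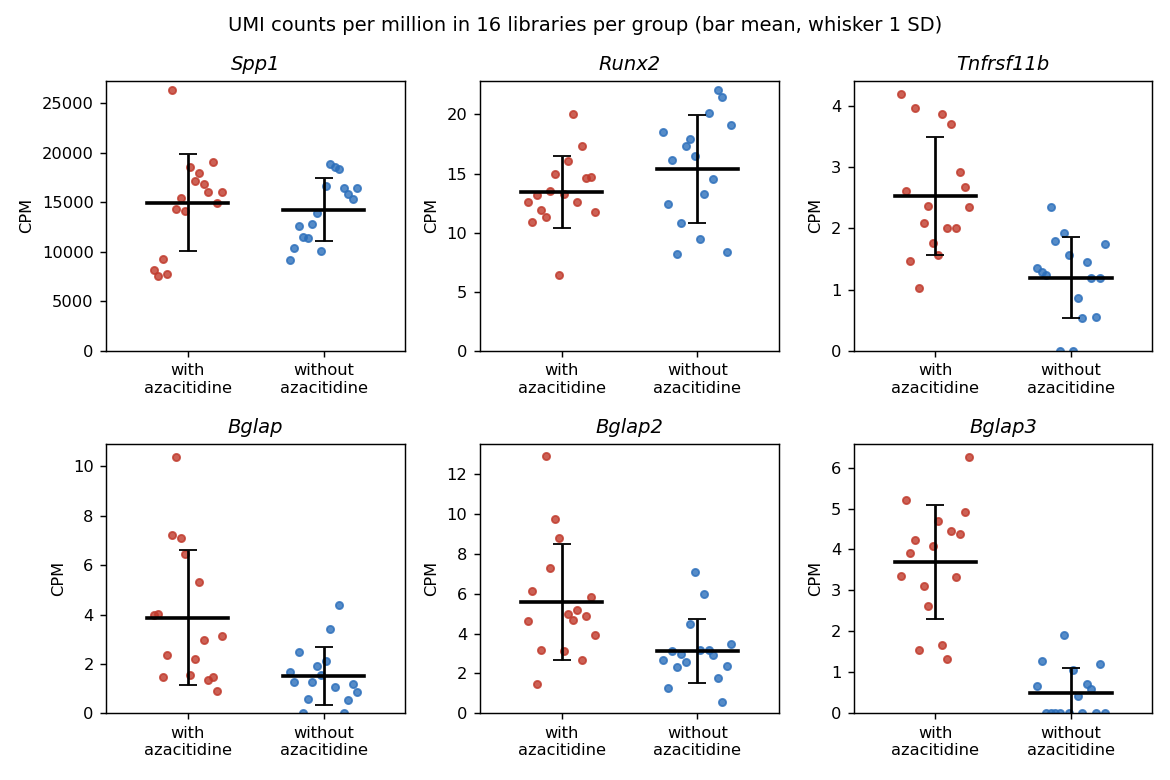
CPM in each library for Spp1, Runx2, Tnfrsf11b, Bglap, Bglap2 and Bglap3 (linear axes from 0), 16 libraries with azacitidine on the left and 16 without it on the right of each panel. Points are libraries in order of their number, the wide bar is the mean and whiskers are 1 SD; the groups overlap in each panel, least in Bglap3, where 13 treated libraries lie above all untreated ones.

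Spp1, the gene of osteopontin, a secreted phosphoprotein that binds integrins and CD44 (ENSMUSG00000029304, chromosome 5, 104435118 to 104441050), was abundant and did not pass the test. It ranged from 7553 over a median of 15696 to 26298 CPM with azacitidine and from 9149 over 14613 to 18811 CPM without it. The 4 lowest treated libraries, all of numbers 1 to 4, held 9254 CPM or less, and 2 treated libraries lay above all untreated ones. Means were 14965 ± 4935 and 14254 ± 3201 CPM (SD) with and without the drug, a log2 fold change of 0.07 (SE 0.14, 95% interval -0.22 to 0.36; edgeR, adjusted p = 0.88). Without treated library 5 the value was -0.003.

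The first runs went opposite ways for Spp1, though not with spike-in scaling, where the log2 differences of the 4 runs were 0.11, 0.76, -0.22 and 0.69 and none was called (edgeR, adjusted p = 0.82, 0.95, 1.00 and 0.23). In numbers 1 to 4 the treated libraries held 7553 to 9254 CPM and the untreated ones 9149 to 12575 CPM, a log2 difference of -0.41 (SE 0.13; edgeR, adjusted p = 0.046). In numbers 5 to 8 they held 14130 to 26298 with and 10110 to 13934 CPM without azacitidine, a difference of 0.54 (SE 0.13; edgeR, adjusted p = 0.0091), and the groups did not overlap. In these runs edgeR called 8.35% and 5.14% of genes, and 1.16% and 2.71% in the others. In numbers 9 to 12 and 13 to 16 the differences were -0.04 and 0.05, both with an SE of 0.13. The difference between runs passed the test (edgeR, interaction, adjusted p = 0.011), as it did for 3.02% of genes. It passed in each of 32 tests that left out 1 library, with an adjusted p between 0.0038 and 0.035. The value of numbers 5 to 8 was 0.28 without treated library 5 (edgeR, adjusted p = 0.11), and without untreated library 8 it was 0.46 (adjusted p = 0.051). The value of numbers 1 to 4 did not pass without treated library 1, 2 or 4 or untreated library 2, 3 or 4 (edgeR, adjusted p between 0.060 and 0.18). Leaving out numbers 1 to 4, or the 5 libraries that stood apart, ended the call of the interaction (edgeR, adjusted p = 0.29 and 0.16), and so did scaling by spike-in RNA (0.73). In numbers 5 to 8 spike-in RNA held 0.0369% of UMIs in treated library 7 and 0.207% in treated library 8. With so uneven a scale, a call lost under it cannot decide whether the runs differ. The median library total was 4237144 UMIs with and 2029650 UMIs without azacitidine in numbers 1 to 4, and 1966209 and 1544862 UMIs in numbers 5 to 8. With all libraries thinned to 818619 UMIs the interaction was called (edgeR, adjusted p = 0.0067).

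**Figure D2:**
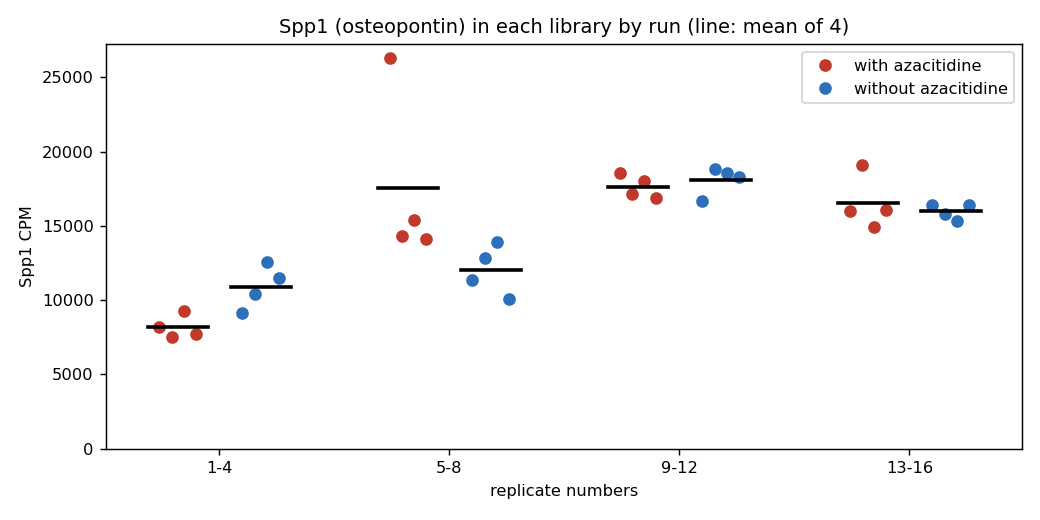
Spp1 in each library in CPM (linear axis from 0), by run of 4 replicate numbers, with azacitidine in red on the left and without it in blue on the right of each run. Lines are means of 4 libraries; the treated mean is lower in numbers 1 to 4 (not with spike-in scaling) and higher in numbers 5 to 8, where library 5 stands at 26298 CPM; the groups overlap in every run but numbers 5 to 8.

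Ibsp, the gene of bone sialoprotein, an RGD-containing phosphoprotein of mineralised matrix (ENSMUSG00000029306, chromosome 5, 104299171 to 104311469), had 0 UMIs with azacitidine, which allows up to 0.078 CPM over the group, and 2 UMIs without it. Spp1 and Ibsp belong to a cluster of genes for mineral-binding phosphoproteins on chromosome 5. Of its other genes Dmp1 had 0 UMIs with and 2 UMIs without azacitidine and Dspp 0 and 1, all at or under the floor of 3 counts. Mepe was not found by symbol among the mouse genes of the table. Of the members in this cluster only Spp1 was measured above that floor.

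Tnfrsf11b, the gene of osteoprotegerin (ENSMUSG00000063727, chromosome 15, 54250619 to 54278484), rose with azacitidine. It had 103 UMIs with azacitidine, in 16 of 16 libraries, and 31 UMIs without it, in 14 of 16. Treated libraries ranged from 1.03 over a median of 2.36 to 4.20 CPM, and untreated ones from 0 over 1.26 to 2.34 CPM. The groups overlapped, with 15 treated libraries above the untreated median and 9 above the highest untreated library. Means were 2.54 ± 0.97 and 1.19 ± 0.66 CPM (SD) with and without the drug, a log2 fold change of 1.16 (SE 0.27; edgeR without the filter, adjusted p = 0.0042). The summed counts were 49 with and 11 without azacitidine in numbers 1 to 4, 19 and 8 in numbers 5 to 8, 17 and 5 in numbers 9 to 12, and 18 and 7 in numbers 13 to 16. The ratios of the shares of all UMIs were 2.31, 1.45, 3.90 and 2.37. The groups did not overlap in numbers 9 to 12 and 13 to 16. In numbers 9 to 12 this rested on treated library 9 at 1.56 CPM and untreated library 12 at 1.46 CPM, each with 2 UMIs. No single run passed the test (edgeR without the filter, adjusted p between 0.16 and 0.81). The difference between runs did not pass the test (edgeR without the filter, interaction, unadjusted p = 0.64). Without numbers 1 to 4 the log2 fold change was 1.11 (adjusted p = 0.073), and without the 5 libraries that stood apart it was 0.99 (adjusted p = 0.094, edgeR without the filter). Its ligand gene Tnfsf11 (RANKL), which drives osteoclast formation, had 15 UMIs with and 8 UMIs without azacitidine, a ratio of 1.34 with a counting interval of 0.532 to 3.64. The gene of RANKL's signalling receptor, Tnfrsf11a (RANK), had 0 and 1 UMIs.

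**Figure D3:**
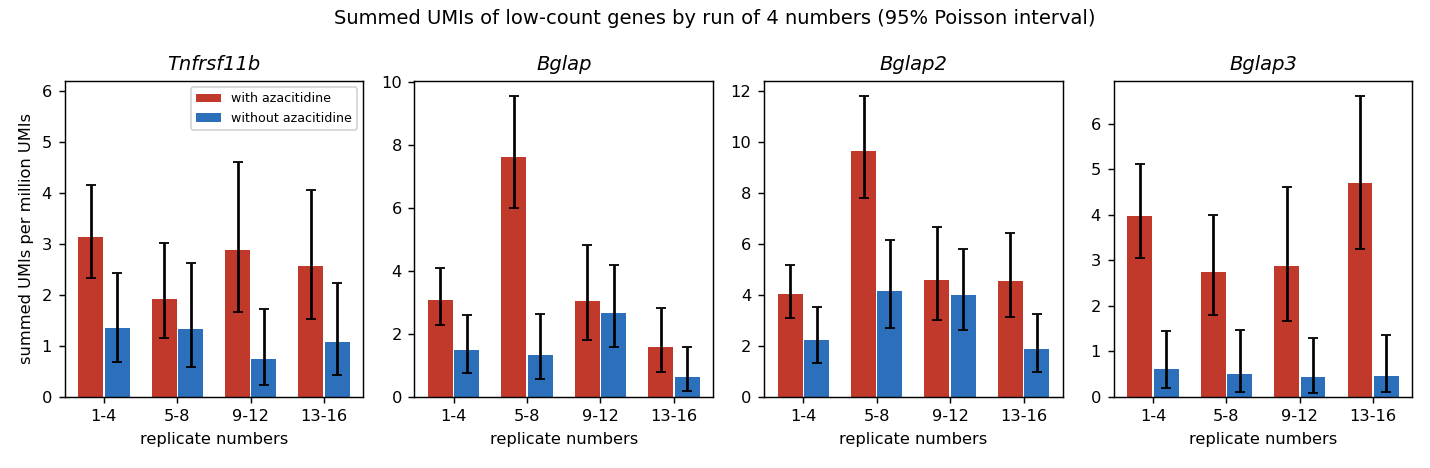
Summed UMIs of Tnfrsf11b, Bglap, Bglap2 and Bglap3 as CPM of the summed libraries by run of 4 replicate numbers, with azacitidine in red and without it in blue (linear axes from 0). Whiskers are exact 95% Poisson intervals, which cover counting error only; Bglap stands at 7.62 with and 1.33 without azacitidine in numbers 5 to 8, and at 3.04 and 2.66 in numbers 9 to 12.

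The counts in the lists of related genes stand beside 5.65% of genes called over all genes tested, and beside 3.29% called as higher without the filter. The median log2 fold change was 0.00 over the 9344 genes tested and 0.05 over all genes without the filter. Of 14 osteoblast transcription factor and cofactor genes 8 were tested and edgeR called 0, with a median of 0.11 and 0 at an unadjusted p under 0.05. Without the filter 0 of the 14 were called, and DESeq2 and limma-voom called 0 as well. With the run as a term edgeR called 1 of the 8, as higher, where it called 993 of 9344 genes. Cbfb, the partner of RUNX2, stood at 25.9 ± 5.0 CPM with and 28.0 ± 3.6 CPM without azacitidine (edgeR, adjusted p = 0.51). Of 10 tested genes of mineralization and bone matrix 1 rose and 0 fell, with a median of 0.13. It was Pdpn, the gene of the membrane glycoprotein podoplanin, at 528 ± 76 CPM with and 420 ± 66 CPM without the drug (log2 fold change 0.33, SE 0.07; edgeR, adjusted p = 0.0031), and its run values lay between 0.28 and 0.44. Pdpn lost its call when runs were summed (edgeR, adjusted p = 0.77) and with spike-in scaling (0.062). Sparc (osteonectin) stood at 2523 ± 884 and 2445 ± 506 CPM with and without the drug (edgeR, adjusted p = 0.93). The collagen genes Col1a1 and Col1a2, which fell, were counted among the stromal markers and not in this list.

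In signalling, 14 genes of the BMP list were tested, 0 rose and 1 fell, with a median of 0.00. It was Grem1, the gene of the BMP antagonist gremlin, at 461 ± 59 CPM with and 546 ± 55 CPM without azacitidine (log2 fold change -0.25, SE 0.06; edgeR, adjusted p = 0.0057). Its run values lay between -0.34 and -0.12, summing the runs ended its call (edgeR, adjusted p = 0.69), and spike-in scaling took it to 0.04. Of 14 tested genes of the Wnt list 1 rose and 0 fell, with a median of 0.08. It was Axin1, a scaffold of the beta-catenin destruction complex, by 0.43 (SE 0.13, edgeR, adjusted p = 0.035). Its call ended when numbers 1 to 4 were left out (edgeR, adjusted p = 0.11) or the runs summed (0.61). It also ended with sums and a run term, without the filter and with spike-in scaling (edgeR, adjusted p = 0.15, 0.056 and 0.055). Without the filter 3 of 30 Wnt list genes rose, where 3.29% of all genes did. They were Dkk3, a gene of the Dickkopf family, with 164 UMIs with and 14 UMIs without azacitidine, Sfrp4, a secreted Wnt antagonist gene, with 20 and 0, and the ligand gene Wnt1 with 9 and 0 (edgeR, adjusted p = 2.2e-08, 0.0031 and 0.047); DESeq2 called 1 and limma-voom 2 genes of the list. Against a floor of 3 counts over the untreated group Sfrp4 was 4.75-fold and Wnt1 2.14-fold higher. These values leave out the counting error of the treated group. 

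Of the 5 tested genes of osteoclast control and hormone response 0 passed with edgeR, DESeq2 or limma-voom, 2 had an unadjusted p below 0.05 (edgeR), and the median was 0.19. With the run as a term edgeR called 2 of the 5, as higher, where it called 993 of 9344 genes. It called 1 without numbers 1 to 4 and 1 without the 5 libraries that stood apart, where it called 574 of 9162 and 557 of 9158 genes. The cytokine gene Csf1 stood at 196 ± 23 CPM with and 171 ± 26 CPM without azacitidine (edgeR, adjusted p = 0.084). Of 6 tested receptor genes for osteopontin and bone sialoprotein 1 rose and 0 fell, with a median of -0.11. It was Cd44, at 115 ± 13 CPM with and 86.4 ± 5.9 CPM without azacitidine (log2 fold change 0.42, SE 0.05; edgeR, adjusted p = 2.5e-07), and each of the 16 treated libraries lay above all untreated ones. Its run values were 0.53, 0.45, 0.40 and 0.28, and when runs were summed it had an adjusted p = 0.086 (edgeR). The integrin gene Itgb3 stood at 6.09 ± 4.02 and 8.01 ± 4.11 CPM with and without the drug and was not called (edgeR, adjusted p = 0.37).

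**Figure D4:**
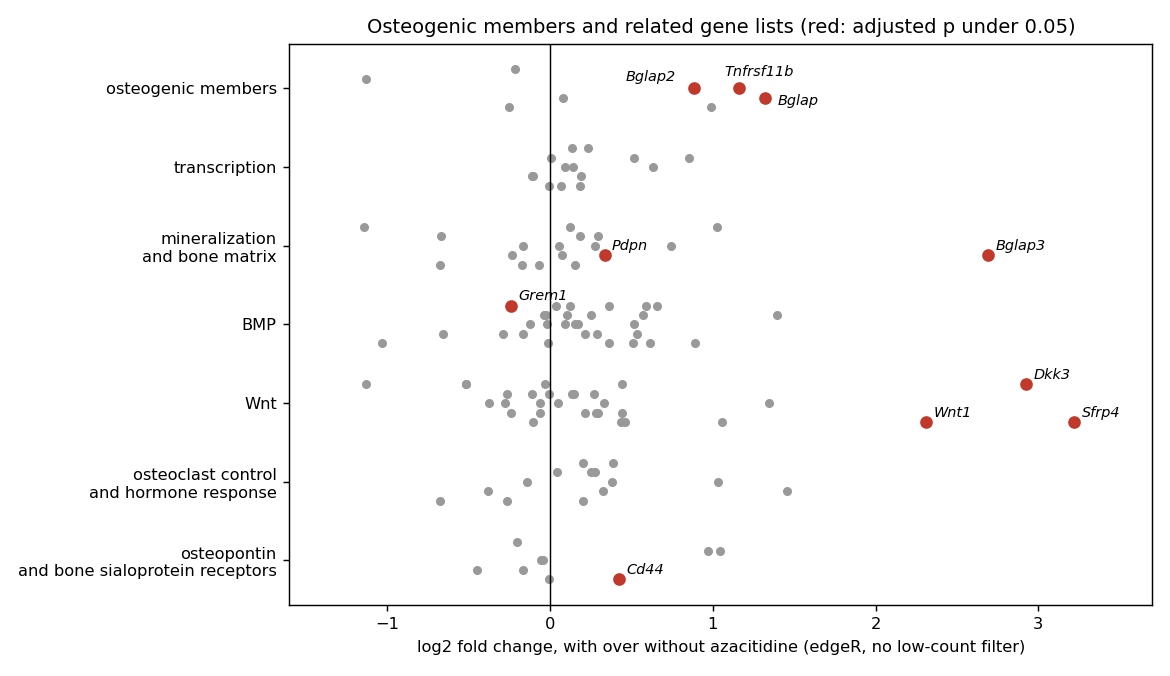
Log2 fold changes, with over without azacitidine, of the 8 members and of 6 related gene lists, from edgeR without the filter on low counts. Points are genes, spread vertically for display, and red points with names passed an adjusted p under 0.05; 3 members lie between 0.89 and 1.32, Bglap3, Dkk3, Wnt1 and Sfrp4 above 2, Pdpn and Cd44 just right of 0 and Grem1 just left of it.

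Markers of other cell types moved in part with the same groups. The summed level of 7 macrophage markers ranged from 25.4 to 49.5 CPM with and from 16.7 to 38.2 CPM without azacitidine, with Cd68 and Cd14 called as higher, and Adgre1 and Ptprc at 1 and 4 UMIs with and 0 and 1 without the drug. Of the other macrophage markers, Lyz2 had 12 UMIs with and 14 UMIs without azacitidine, Itgam 161 and 143, and Csf1r 45 and 26, with log2 fold changes of -0.64, -0.31 and 0.33 that did not pass the test (edgeR without the filter, adjusted p = 0.63, 0.58 and 0.72). The 7 osteoclast markers found in the table summed to 47.8 to 116 CPM with and 37.2 to 113 CPM without azacitidine, and Acp5, a phosphatase gene of osteoclasts, had 19 UMIs with and 1 UMI without it (edgeR without the filter, adjusted p = 0.0068). DESeq2 and limma-voom without the filter called 0 of the osteoclast markers, so neither called Acp5. The other osteoclast markers were not called: Ocstamp had 4 and 0 UMIs, Dcstamp 9 and 2 and Oscar 1 and 3 with and without the drug, and Ctsk, Nfatc1 and Mmp9 had log2 fold changes of 0.46, 0.32 and -0.44 (edgeR, adjusted p = 0.086, 0.21 and 0.55). The osteocyte markers found, Dmp1 and Phex, summed to 0.98 to 6.26 CPM with and 0.67 to 4.40 CPM without the drug. The 3 chondrocyte markers found summed to 96.8 to 203 and 124 to 209 CPM with and without the drug, nearly all of it Sox9, with Col2a1 at 3 and 3 UMIs. The 5 adipocyte markers found summed to 148 to 431 CPM with and 194 to 436 CPM without azacitidine, with Adipoq at 1 and 2 UMIs and Fabp4 called as higher (log2 fold change 1.44; edgeR, adjusted p = 0.00016). Lpl, at 229 CPM with and 250 CPM without the drug, and Pparg had log2 fold changes of -0.12 and 0.14. Neither was called (edgeR, adjusted p = 0.79 and 0.73), and Cebpa had 3 and 1 UMIs. The part of these cell type markers in the results was not tested.

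After removal of group means, the tested genes most like Spp1 over the 32 libraries were Rps19, Pfkp and Ostf1, with Pearson correlations of 0.931, 0.915 and 0.898 of log2 CPM, and 13.5% of 9343 genes exceeded 0.5. Within runs the correlations were 0.80, 0.63 and 0.58. For Runx2 the 3 were 1700003F12Rik, Rab11fip2 and Slc12a9, at 0.652, 0.649 and 0.640, with 0.214% of genes above 0.5. The points share library depth and run.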

How the data were processed

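Per the labels' protocols, RNA was isolated with a column kit and made into barcoded, pooled cDNA by a method with unique molecular identifiers, then into libraries with a transposase kit; STAR 2.4.0, bedtools 2.17.0 and mm10 are named in the submitters' processing notes. UMI collapsing, annotation and strand use are not given in the sources used here. The deposited values are raw UMI counts per gene, not normalized by the authors as far as the values show. The 68 spike-in rows (0.106% of UMIs) stayed out of library sizes and tests. Symbols were found for 21506 of 21829 genes.

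The main test was edgeR 4.0.16 (robust quasi-likelihood fit, TMM, default expression filter, two-sided, Benjamini-Hochberg adjustment) in R 4.3.3. Standard errors come from the fold change and F statistic. Members below the filter were read from the same test on all genes with a UMI, TMM then over those genes. Runs were tested in 1 model with a group for each run and treatment. DESeq2 1.42.0 and limma 3.58.1 (voom) were alternatives, as were 13 others, named in the closing section. Tests were tried on simulated counts. Positions are from GENCODE M21, promoters from RefSeq. No library pair within a group agreed within sampling noise (lowest chi-square per degree of freedom 1.11 with and 1.13 without azacitidine).

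The members and lists were chosen with earlier results of these data known. Named were all members, Bglap3, partners and neighbours of members, up to 4 called genes a list in order of p, and the 3 genes most like each tested member. Other named genes (Dkk3, Sfrp4, Wnt1, Cbfb, Sparc, Csf1, Itgb3 and the markers) were chosen after their values were seen. Figures used matplotlib 3.10.9.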

Additional observations from a re-analysis of the deposited data

Results flagged for a closer look

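The effect of azacitidine on Spp1 differed between the runs of replicate numbers (edgeR, interaction, adjusted p = 0.0114), with log2 differences of -0.41, 0.54, -0.04 and 0.05. What the runs stand for is not given in the labels, so a cause was not tested.

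In 40 sets of 4 libraries, 1 set for each run, group and gene among Spp1, Runx2, Bglap, Bglap2 and Tnfrsf11b, 3 held a library far from the other 3 by Dixon's criterion at 95%; chance gives about 5%. Treated library 5 had 26298 CPM of Spp1, against 15376 CPM in the nearest library of its run. Untreated library 10 had 5.99 CPM of Bglap2, the nearest being 3.18 CPM. Untreated library 4 had 2.34 CPM of Tnfrsf11b from 2 UMIs, the nearest being 1.34 CPM.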

How the results depend on the processing

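The number of genes called was 528 in the main test, 897 with the replicate block, 860 without the filter, 269 after thinning, 993 with a run term and 108 with sums over runs (400 with sums and a run term). It lay between 507 and 565 with DESeq2, its size factors, limma-voom, library totals alone, without the lowest library of each group and without the 5 libraries apart, was 574 without numbers 1 to 4, 641 with a mean of at least 5 UMIs and 355 with spike-in scaling. The same replicate numbers do not pair the samples by the labels, and same-numbered libraries correlated by between -0.292 and 0.832, over 0.1 in 12 of 16 pairs; 3 treated and 4 untreated libraries correlated best with their own number. The block moved no member's call: Spp1 was at 0.02, Runx2 at -0.20, Bglap at 1.30, Bglap2 at 0.89 and Tnfrsf11b at 1.12. Of the members 0 were called in the main test, 3 without the filter, 2 with a filter at a mean of 5 UMIs (Bglap and Bglap2) and 2 with sums and a run term. The last 2 settings called 641 of 11287 and 400 of 12281 genes. The mean of 5 UMIs was taken over both groups, and Bglap had a median of 6 UMIs with and 2 UMIs without azacitidine. Its passing of that filter is therefore no added evidence of a rise. Without the filter the count of 3 was 1 after thinning and 0 with sums. Those combinations, leaving out each library and the summed osteocalcin rows were chosen after seeing the data. With spike-in scaling the median gene stood at 0.31 (log2) and Runx2 at 0.0752; thinning took Runx2 to 0.0825. Sp7 was at -0.0223 with limma-voom, and Grem1 at 0.0406 with spike-in scaling. Calls were lost for Bglap after thinning (1.23) and with sums (1.32), for Bglap2 with limma-voom (0.83), after thinning (0.97) and with sums (0.89), and for Tnfrsf11b with sums (1.19), without numbers 1 to 4 (1.11) and without the 5 libraries apart (0.99). The cause was not tested; thinning and sums leave fewer counts or samples. Leaving out each library in turn gave Spp1 -0.00339 (without treated library 5) to 0.117, Runx2 -0.27 to -0.18, Bglap 1.16 to 1.47, Bglap2 0.76 to 1.00 and Tnfrsf11b 1.05 to 1.22. The interaction of run and azacitidine was called for 1 member in the main test and for 0 with spike-in scaling, without numbers 1 to 4 and without the 5 libraries apart. With the replicate block edgeR called 1 of the 8 transcription genes and 2 of the 5 genes of osteoclast control, against 0 and 0 in the main test. Over all genes it called 897 of 9344 with the block. Depth limits Sp7, Alpl and Ibsp, with 5 UMIs or fewer in a group.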
